A study of Sus scrofa with 10 samples.

Results

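The BCL2 family decides whether the outer mitochondrial membrane stays intact. Anti-apoptotic members hold the effectors BAX and BAK1 in check, while the effector BOK is active outside their control. BH3-only members bind and neutralise the anti-apoptotic members or activate the effectors, and pores formed by the effectors release cytochrome c. In cleavage-stage embryos, which carry oocyte RNA and protein while their own genome starts up, the family is known for its part in embryo fragmentation and arrest. The rule named 10 genes: the anti-apoptotic BCL2, BCL2L1, BCL2L2 and MCL1, the effectors BAX, BAK1 and BOK, and the BH3-only BID, BAD and PMAIP1. Rows were found by gene name, and 8 members had 1 row each among 24358 genes listed, with 21 of 47421 isoform rows. BCL2 and BCL2L2 are not analysed here. The Ensembl gene that the name table gives as BCL2L2 (ENSSSCG00000002023) carries the name PABPN1 in the deposited table, with 6.76 to 18.5 FPKM, and was not used, and the anti-apoptotic side therefore rests on BCL2L1 and MCL1.

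The samples were pig morulae. Matured oocytes received siRNA against DDB1 (DDB1_KD, 5 libraries) or a non-specific siRNA (NC, 5 libraries), and all were then activated parthenogenetically and cultured, so no embryo in either group had a paternal genome. The series title names apoptosis among the processes under study. DDB1, the adaptor of CUL4 ubiquitin ligases, averaged 1.27 ± 0.227 (SD, n = 5) after its siRNA, against 3.37 ± 0.708 (SD, n = 5) after the non-specific one, in FPKM (fragments per kilobase of model, scaled to library size), with no overlap of the groups. By edgeR the log2 fold change of DDB1 was -1.39 (SE 0.28; adjusted p = 0.977), and by DESeq2 it was -1.36 (adjusted p = 0.0069).

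Library totals were 32466912 to 50911295 estimated counts, lowest in DDB1_KD replicate 4. All 7 markers of the early embryo that were looked for, such as POU5F1 and NANOG, had counts. Of 6 cumulus markers matched, FSHR and AMH were listed at 0 and the list summed to at most 0.518 FPKM, while 6 fibroblast markers summed to at most 1.47 FPKM. Of 5 blood markers, HBB had counts in 8 libraries (at most 9.97 FPKM), LYZ in 8 (at most 2.63 FPKM) and CD68 in 10 (at most 2.38 FPKM). PTPRC had counts in 2 libraries and CSF1R in 3. The labels do not say that same-group libraries were cultured apart, so p-values speak only of the spread among the libraries at hand, which may be technical. In such bulk RNA, fewer cells of a type and less RNA per cell cannot be told apart.

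BAD was by far the most abundant member, and BAX and BOK were close to undetected. To compare genes, the deposited FPKM of all isoforms of a gene was added up, because the gene FPKM divides by a length up to that of all its isoforms together (4879 bases for BID, whose main isoform has 1552). On this isoform-summed scale the means over the 10 libraries were 344 FPKM for BAD, 24.1 for BID, 14.8 for PMAIP1, 9.82 for MCL1, 5.86 for BCL2L1, 4.86 for BAK1, 0.304 for BAX and 0.136 for BOK. BAD lay above BID in 10 of 10 libraries and BID above PMAIP1 in 9. PMAIP1 exceeded MCL1 in only 5 of 10 libraries and BAX exceeded BOK in 6, so these neighbours had no fixed order. MCL1 exceeded BCL2L1 in 7 libraries, BCL2L1 exceeded BAK1 in 8, and BAK1 lay above BAX in all 10.

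**Figure D1:**
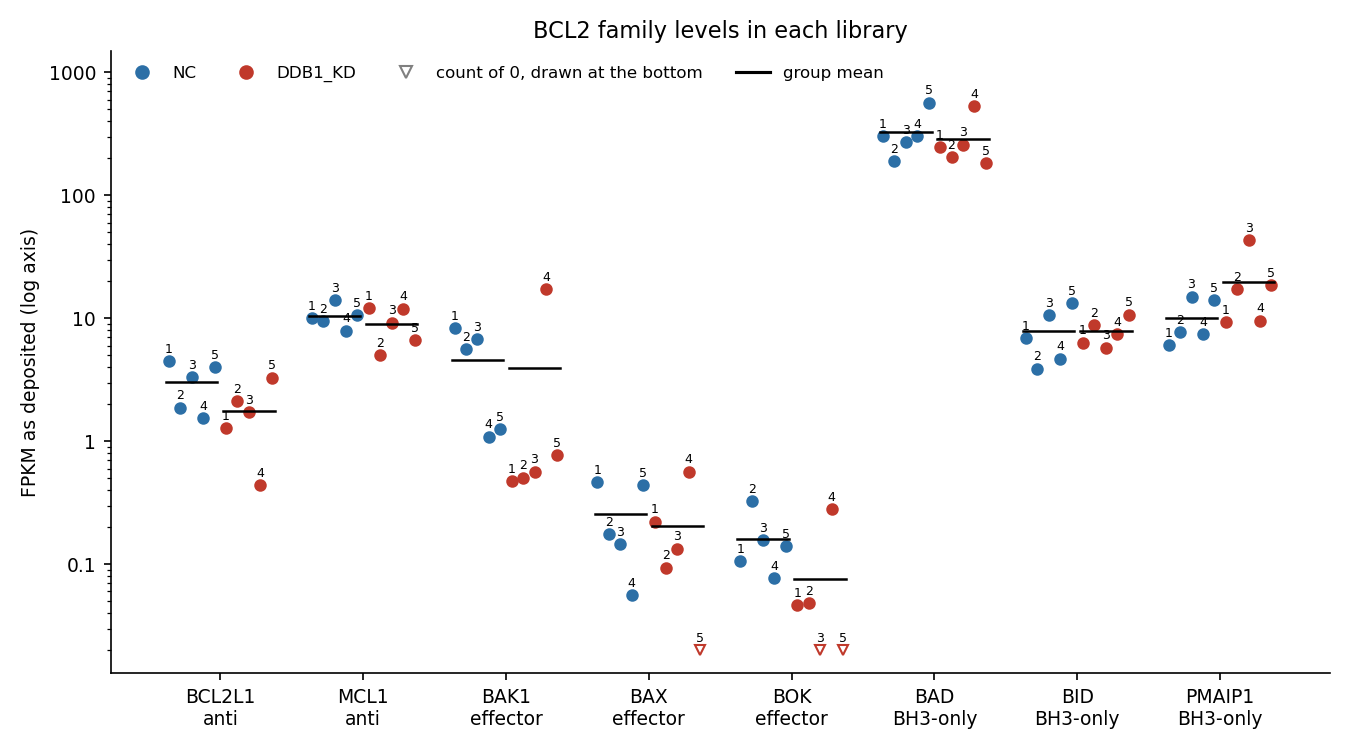
Deposited gene FPKM (log axis) of the 8 members in each library, with NC in blue, DDB1_KD in red, replicate numbers above the points and group means as bars. The groups overlapped for every member, and BAK1 in DDB1_KD replicate 4 (17.3 FPKM) stood apart from the other DDB1_KD libraries (0.475 to 0.770 FPKM).

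No member passed the test used across all genes, and neither did DDB1, the gene targeted by the siRNA. DDB1 ranked 1 of 8476 genes with an unadjusted p of 0.000293 by edgeR, so failing to pass does not show an unchanged level. Of the 6 members with a mean of at least 1 FPKM, the limit for testing, 0 passed the quasi-likelihood test of edgeR (Benjamini-Hochberg, 0.05), and adjusted p ran from 0.977 to 0.992. Among all 8476 genes tested 0 passed (0%), 245 (2.89%) had an unadjusted p under 0.05, limma passed 0 and DESeq2 passed 2 (0.0236%), neither of them a member. At an unadjusted p under 0.05 there was 1 member of 6, PMAIP1. The fitted value was higher in DDB1_KD for 2 of the 6 members and lower for 4, with a median log2 fold change of -0.20, against 0.00 over all genes tested, of which 50% were higher. FPKM values of the groups did not overlap for 0 of the 8 members, and for 0.413% of all genes tested.

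Of the anti-apoptotic members, BCL2L1 encodes BCL-XL, which restrains BAX and BAK1. The gene (ENSSSCG00000035357) lies on chromosome 17 from 35315475 to 35415778 on the minus strand of the susScr11 build. It had 1.27, 2.11, 1.73, 0.438 and 3.28 FPKM in DDB1_KD replicates 1 to 5. In NC replicates 1 to 5 it had 4.51, 1.88, 3.32, 1.54 and 4.0 FPKM. The groups overlapped, but DDB1_KD replicates 1 and 4 lay below every NC library and NC replicates 1, 3 and 5 above every DDB1_KD library. Mean BCL2L1 was 1.77 ± 1.05 FPKM with DDB1 siRNA against 3.05 ± 1.30 with control siRNA (each SD, n = 5). This is a log2 fold change of -0.72 (SE 0.47; edgeR adjusted p = 0.977), equal to 60.7% of the NC level. Leaving out DDB1_KD replicate 5 gave -1.10, and leaving out replicate 4 gave -0.46.

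BCL2L1 had counts from 3 of its 5 listed isoforms, and almost all came from a pair of 3-exon models. The isoform ENSSSCT00000040690 (2586 bases) averaged 1.66 ± 1.62 FPKM in DDB1_KD against 5.26 ± 2.90 in NC (each SD, n = 5), while ENSSSCT00000050913 (4466 bases) averaged 2.16 ± 1.95 and 2.45 ± 1.47 FPKM (each SD, n = 5). The first was listed at 0 in DDB1_KD replicates 4 and 5, which allows up to 3 counts in each, and replicate 5 held the highest level of the other isoform, 5.58 FPKM. Neither isoform passed (log2 fold change -1.63, SE 1.51, and -0.095, SE 0.78, edgeR adjusted p = 0.9997 for both). Of the 8 member isoforms tested 0 passed by edgeR or DESeq2, 0 had an unadjusted p under 0.05 and 0 had groups without overlap. Among all 11250 isoforms these shares were 0.00889% and 0.604%, 3.36% and 0.373%. The start of the first isoform, on the minus strand, overlaps 192 bases of TPX2, a spindle gene on the other strand at 39.7 FPKM. Reads there cannot be told apart where counting ignored strand.

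MCL1, the short-lived guardian that binds BAK1 and PMAIP1, was the steadiest member, with a 2.81-fold range over the 10 libraries. Its levels were 12.0, 4.98, 9.21, 12.0 and 6.61 FPKM in DDB1_KD replicates 1 to 5. NC replicates 1 to 5 had 10.1, 9.53, 14, 7.94 and 10.7 FPKM. DDB1_KD replicates 2 and 5 were below every NC library and the other 3 were within the NC range. The log2 fold change was -0.21 (SE 0.26; edgeR adjusted p = 0.977), and it was -0.046 without DDB1_KD replicate 2. The row (ENSSSCG00000039314, chromosome 4, 98527907 to 98568965, plus strand) drew nearly all its counts from an isoform of 8 exons, ENSSSCT00000038126, that starts at the same base as the neighbouring ENSA gene. The isoform that lies within 98562153 to 98567005, ENSSSCT00000055424, was listed at 0 in all 10 libraries. ENSA itself had 3.65 FPKM and overlaps the row over 13566 bases on the same strand, and how reads were divided between the overlapping models was not tested.

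BAK1, the effector that sits in the outer mitochondrial membrane, varied more than any other member detected in all libraries, with a 36.5-fold range. The gene (ENSSSCG00000001516) lies on chromosome 7 from 29807011 to 29815191 on the minus strand. DDB1_KD replicates 1, 2, 3 and 5 had 0.475, 0.507, 0.568 and 0.770 FPKM (96 to 170 counts), and replicate 4 had 17.3 FPKM (2623 counts). NC replicates 1, 2 and 3 had 8.34, 5.61 and 6.73 FPKM, and replicates 4 and 5 had 1.09 and 1.26 FPKM. The NC libraries thus fell into a high set of 3 and a low set of 2, and all DDB1_KD libraries but replicate 4 lay below both. BAK1 averaged 3.93 ± 7.48 FPKM with DDB1 siRNA against 4.60 ± 3.28 with control siRNA (each SD, n = 5), a log2 fold change of -0.35 (SE 1.01; edgeR adjusted p = 0.979).

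The value for BAK1 rested on 1 library. Without DDB1_KD replicate 4 the other 4 averaged 0.580 ± 0.133 FPKM (SD, n = 4), all below the NC libraries, at 13.2% of the NC level by the fit (log2 fold change -2.92, SE 0.63). Its unadjusted p in that edgeR fit was 0.000619, which ranked 11 of 8476 genes, but the adjusted p was 0.469. In the same fit 10.5% of genes had an unadjusted p under 0.05, 5.13% being lower in DDB1_KD, 2.7% did not overlap, and 0 genes passed. Without NC replicate 1 the log2 fold change was -0.036.

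**Figure D2:**
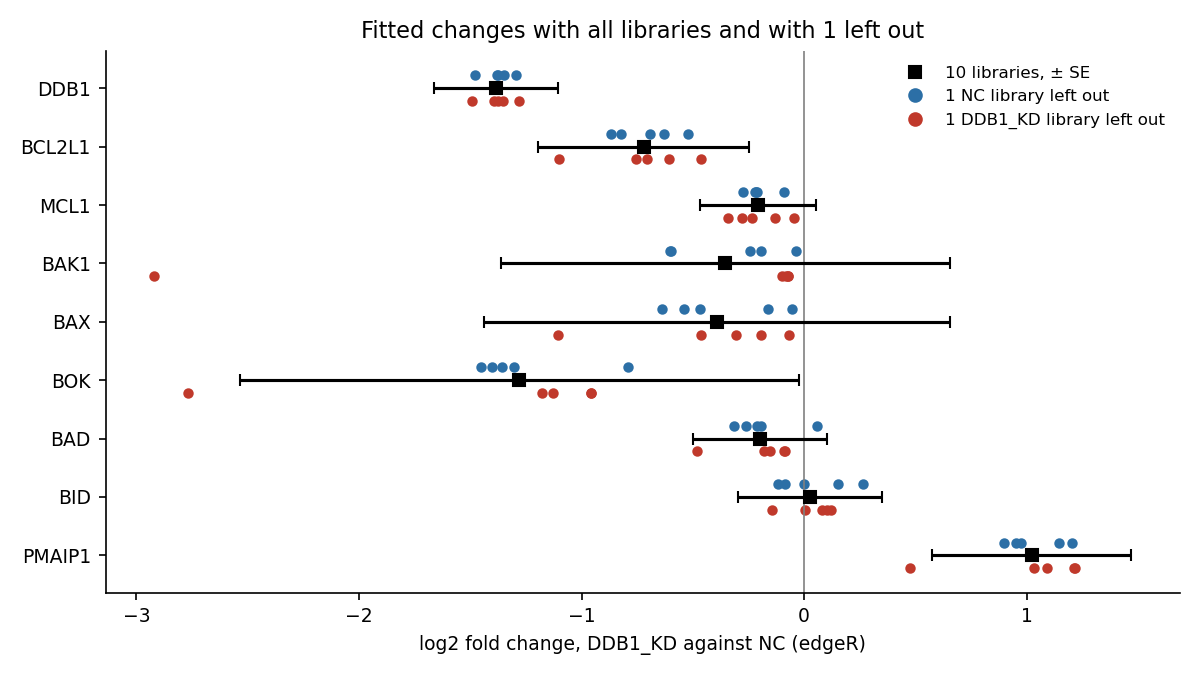
Log2 fold change of DDB1 and each member, with DDB1_KD against NC (squares, ± SE), and the same value with 1 library left out (blue, an NC library; red, a DDB1_KD library). BAX and BOK come from a fit with no limit on FPKM. BAK1 moved from -0.35 to -2.92 and BOK from -1.28 to -2.77 when DDB1_KD replicate 4 was left out.

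Libraries high in BAK1 were also high in trophectoderm markers. The 4 libraries with the highest BAK1, namely DDB1_KD replicate 4 and NC replicates 1, 2 and 3, were also the 4 with the highest summed FPKM of 11 trophectoderm markers (395 to 903 FPKM), and DDB1_KD replicates 2 and 3, with 52.9 and 108 FPKM, had the lowest sums. The lowest BAK1 level was in DDB1_KD replicate 1, whose sum was 259 FPKM. The sums ran from 52.9 to 587 FPKM in DDB1_KD and from 288 to 903 FPKM in NC. After DDB1 siRNA 8 of the 9 that were tested stood lower and 0 passed. Their median was -1.02 in log2, and -0.60 without NC replicate 1. KRT18 reached 453 FPKM, DAB2 192 and KRT8 179, while CDX2 and HAND1 had at most 16 and 53 counts. These sums do not count cells of a type, and what links them to the BAK1 values was not tested.

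**Figure D3:**
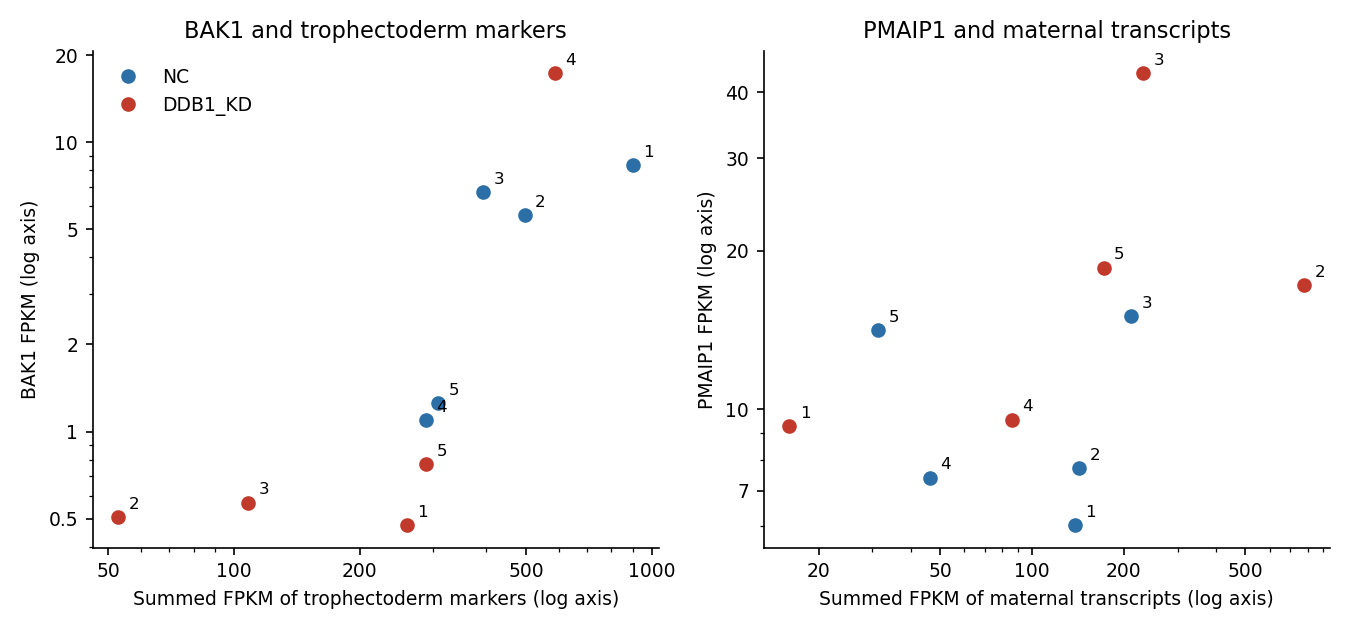
BAK1 FPKM against the summed FPKM of trophectoderm markers (left) and PMAIP1 FPKM against the summed FPKM of maternal transcripts (right), 1 point per library with its replicate number, all axes log. In each panel the 4 libraries with the highest member level are the 4 with the highest list sum. In the right panel the next library by PMAIP1, NC replicate 5 (14.1 FPKM), had a sum of only 31.3 FPKM.

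BAK1 counts were also assigned to different isoforms, each of 6 exons. These models overlap, and how reads were divided between them was not tested. ENSSSCT00000001689 had 1.25 to 9.52 FPKM in NC and 19.8 FPKM in DDB1_KD replicate 4, but 0.255 to 0.466 FPKM in the other 4 DDB1_KD libraries. ENSSSCT00000056730, whose listed start lies inside the first (29814014 against 29815191 on the minus strand), had 43 to 80 counts in those 4 DDB1_KD libraries. It was listed at 0 in DDB1_KD replicate 4 and in all 5 NC libraries, which allows up to 3 counts in each. Its mean of 0.114 FPKM was under the limit for testing. The main isoform did not pass (log2 fold change -0.45, SE 1.29, edgeR adjusted p = 0.9997), and its value without DDB1_KD replicate 4 was -3.83.

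**Figure D4:**
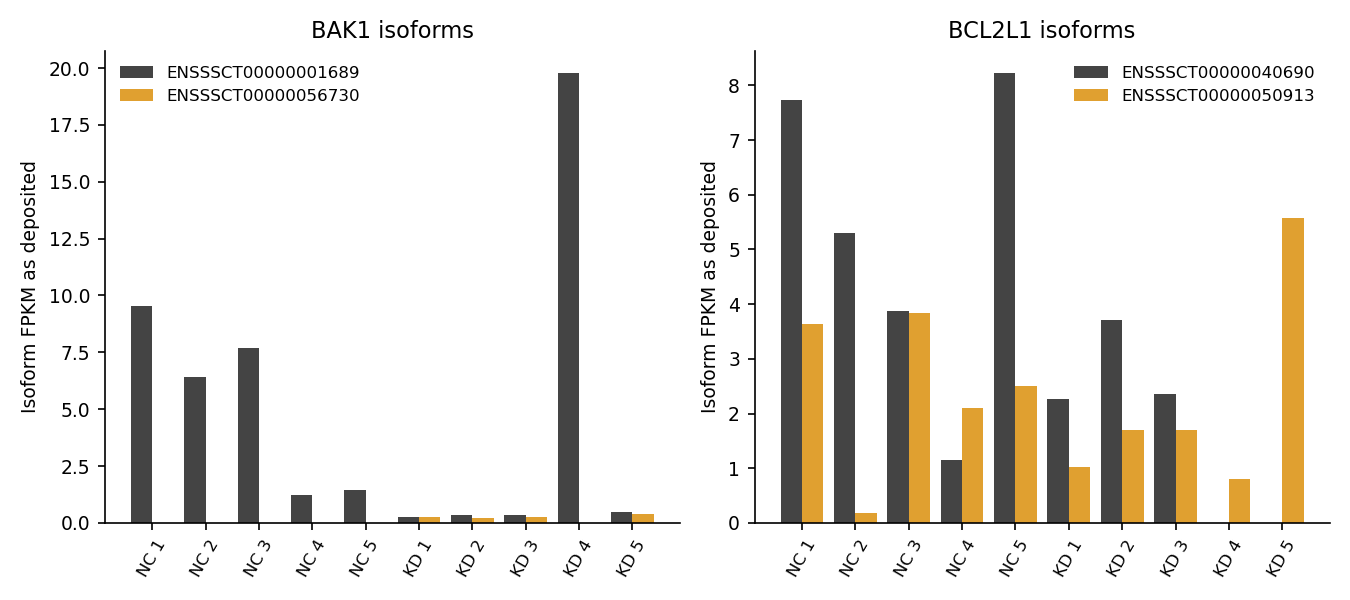
Deposited isoform FPKM in each library for the BAK1 isoforms with counts (left) and the main BCL2L1 isoforms (right), both axes from 0. The second BAK1 isoform appears in DDB1_KD replicates 1, 2, 3 and 5 only, and the BCL2L1 isoform ENSSSCT00000040690 is listed at 0 in DDB1_KD replicates 4 and 5.

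The other effectors were scarce. BAX, which moves from the cytosol to mitochondria when activated, had no more than 84 counts in any library. It had 0.221, 0.0936, 0.134, 0.567 and 0 FPKM in DDB1_KD replicates 1 to 5 and 0.464, 0.175, 0.146, 0.0561 and 0.438 FPKM in NC replicates 1 to 5. The highest and the lowest value were both in DDB1_KD. All counts came from the 5-exon isoform ENSSSCT00000063771 (chromosome 6, 54222464 to 54229745, plus strand), and the 11-exon isoform, which overlaps DHDH, was listed at 0 throughout. BOK, an effector active outside the control of the guardians, had at most 83 counts and 0.324 FPKM. It was listed at 0 in DDB1_KD replicates 3 and 5, which allows up to 3 counts in each. With no limit on FPKM, edgeR gave log2 fold changes of -0.39 (SE 1.05; adjusted p = 0.991) for BAX and -1.28 (SE 1.25; adjusted p = 0.915) for BOK, with 0 of 18578 genes passing (0%). Without DDB1_KD replicate 4 they were -1.11 and -2.77.

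Among BH3-only members, PMAIP1 (NOXA), which binds MCL1 and promotes its degradation, had the smallest p of the family. The gene (ENSSSCG00000026454; chromosome 1, 161182890 to 161188164, minus strand) has 1 listed isoform of 2 exons. DDB1_KD replicates 1 to 5 had 9.30, 17.2, 43.5, 9.56 and 18.6 FPKM. NC replicates 1 to 5 had 6.02, 7.72, 15.0, 7.42 and 14.1 FPKM. DDB1_KD replicates 2, 3 and 5 were above every NC library, and replicates 1 and 4 were within the NC range. PMAIP1 averaged 19.6 ± 14 FPKM with DDB1 siRNA against 10.1 ± 4.18 with control siRNA (each SD, n = 5). The log2 fold change was 1.02 (SE 0.45), with an unadjusted p of 0.0402 and an adjusted p of 0.977 by edgeR, and PMAIP1 ranked 179 of 8476 genes by p. Of all genes, 1.76% had an unadjusted p under 0.05 and a higher value in DDB1_KD. Without DDB1_KD replicate 3 the log2 fold change was 0.48 (unadjusted p = 0.199 by edgeR), and the unadjusted p was also above 0.05 without DDB1_KD replicate 5 or NC replicates 1, 2 or 4.

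The 4 libraries highest in PMAIP1 also had the highest sums of maternal transcripts. Its 4 highest libraries, DDB1_KD replicates 2, 3 and 5 and NC replicate 3, were the 4 with the highest summed FPKM of oocyte transcripts (172 to 778 FPKM). Of 19 such genes 17 were matched and 14 tested, and all 14 stood higher after DDB1 siRNA (median 0.93 in log2), 0 of them passing. Without DDB1_KD replicate 2 the count was 11 of 14 and the median 0.65, with BTG4, OOSP2 and OOEP turning to -0.28, -0.71 and -0.31. OOSP2 reached 281 FPKM and BTG4 266 FPKM, so a sum can rest mainly on few genes, while TLE6 was listed at 0. The sums ran from 16.0 to 778 FPKM in DDB1_KD and from 31.3 to 212 FPKM in NC. Below these 4 the orders differed. NC replicates 1 and 2, with sums of 138 and 142 FPKM, had 6.02 and 7.72 FPKM of PMAIP1, while NC replicate 5 and DDB1_KD replicate 1, with sums of 31.3 and 16.0 FPKM, had 14.1 and 9.30 FPKM. The part of maternal RNA in the PMAIP1 values was not tested.

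BAD, which is held inactive by phosphorylation and otherwise binds BCL-XL, was abundant in every library. DDB1_KD replicates 1 to 5 had 247, 204, 258, 533 and 183 FPKM, and NC replicates 1 to 5 had 301, 190, 272, 304 and 566 FPKM. In each group 1 library, DDB1_KD replicate 4 and NC replicate 5, lay well above the other 4. The log2 fold change was -0.20 (SE 0.30; edgeR adjusted p = 0.977), and its sign changed, to 0.056, without NC replicate 5. The 4-exon isoform ENSSSCT00000014246 (1044 bases; chromosome 2, 7831174 to 7842862, plus strand) carried 339 FPKM on average and the 5-exon isoform 5.28 FPKM.

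BID, which is cut by caspase-8 and then activates the effectors, had nearly equal means. It had 5.78 to 10.7 FPKM in DDB1_KD (median 7.47) and 3.90 to 13.3 FPKM in NC (median 6.92), and the NC range enclosed every DDB1_KD library. The log2 fold change was 0.026 (SE 0.32; edgeR adjusted p = 0.992), and its sign was not stable when 1 library was left out (-0.14 without DDB1_KD replicate 5, 0.27 without NC replicate 5). The 7-exon isoform ENSSSCT00000000833 averaged 23.2 ± 6.73 FPKM in DDB1_KD against 22.8 ± 12.5 in NC (each SD, n = 5), and the other 2 isoforms reached at most 1.68 FPKM.

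The balance of the family was read within each library, where scaling cancels out. It was taken from the gene FPKM as deposited, and again from isoform-summed FPKM. The summed gene FPKM of the 6 pro-apoptotic members, divided by that of MCL1 and BCL2L1, was 19.8, 32.6, 28.2, 45.8 and 21.6 in DDB1_KD replicates 1 to 5. In NC replicates 1 to 5 it was 22.2, 18.2, 17.6, 33.5 and 40.6. The groups overlapped over most of their range, with mean log2 ratios of 4.82 ± 0.485 for DDB1_KD against 4.64 ± 0.540 for NC (each SD, n = 5). BAD alone made up 83.8% to 95.8% of the pro-apoptotic sum, so the upper part of this ratio is mainly BAD. In the divisor MCL1 was above BCL2L1 in every library by gene FPKM, but in only 7 of 10 on the isoform-summed scale. On that scale the ratio was 20.03 to 50.9 in DDB1_KD against 15.6 to 32.4 in NC. BCL2L10, another anti-apoptotic gene, was not named by the rule and is in none of these ratios. Its gene FPKM averaged 22.2 ± 21.2 in DDB1_KD and 15.1 ± 6.32 in NC (each SD, n = 5), above the means of MCL1 (8.96 and 10.4).

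Without BAD, a choice made after seeing the data, the ratio was 1.23, 3.76, 4.57, 2.83 and 3.04 in DDB1_KD replicates 1 to 5. It was 1.5, 1.55, 1.89, 1.41 and 2.0 in NC replicates 1 to 5. DDB1_KD replicates 2 to 5 were above every NC library and replicate 1 was below every NC library. Different members made up these sums. By gene FPKM the largest pro-apoptotic part was BAK1 in DDB1_KD replicate 4 (17.3 FPKM). In DDB1_KD replicates 2, 3 and 5 it was PMAIP1 (17.2, 43.5 and 18.6 FPKM). On the isoform-summed scale replicates 2 to 5 were again above every NC library (4.12 to 4.49 against 1.71 to 2.65), but replicate 1, at 1.93, was within the NC range. The effectors alone gave 0.0558, 0.0915, 0.0641, 1.46 and 0.0779 in DDB1_KD, and 0.611, 0.535, 0.406, 0.129 and 0.125 in NC, in replicate order. Here 4 DDB1_KD libraries were below every NC library and replicate 4 above all of them, also on the isoform-summed scale. BAX and BOK had at most 0.567 and 0.324 FPKM, so this ratio mainly repeats the BAK1 levels given above. The direction of the balance thus depended on which members were counted.

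**Figure D5:**
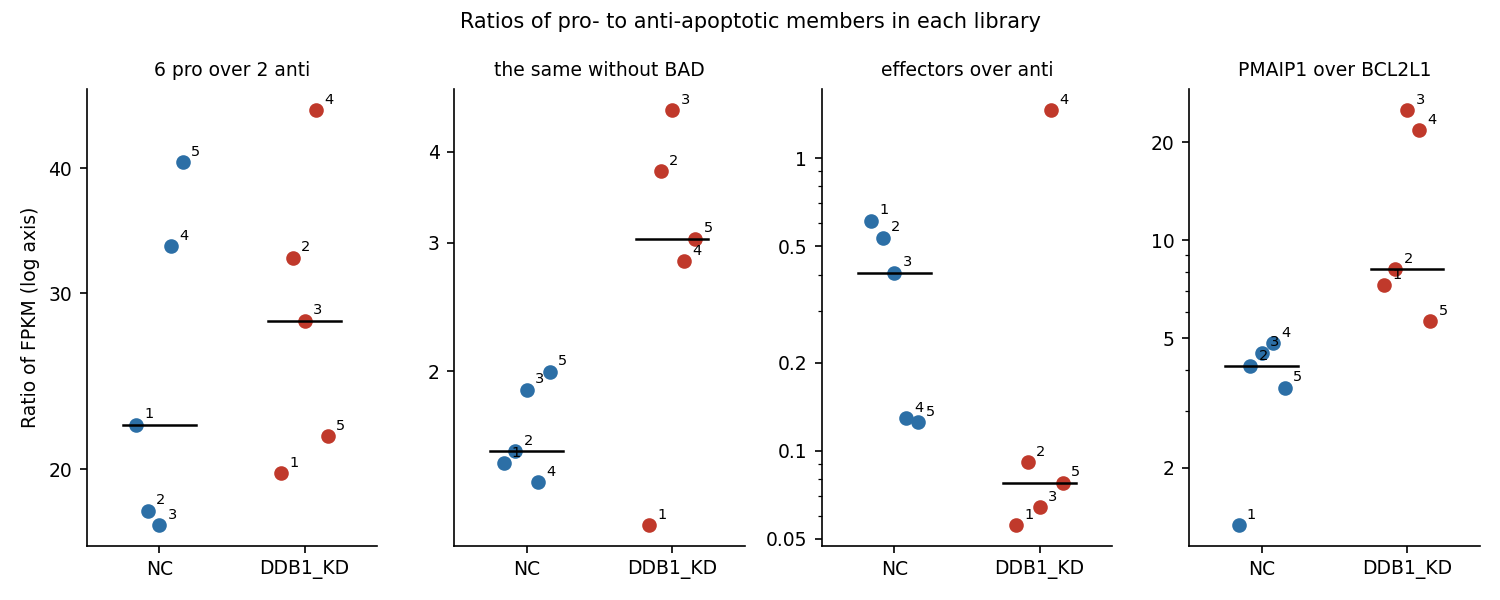
Ratio of summed gene FPKM of pro-apoptotic to anti-apoptotic members in each library (log axes that differ between panels; bars are medians): all 6 over MCL1 and BCL2L1, the same without BAD, effectors alone, and PMAIP1 over BCL2L1. Only the last panel shows no overlap (5.66 to 25.2 in DDB1_KD, 1.34 to 4.82 in NC).

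Of the 12 single ratios of a pro-apoptotic to an anti-apoptotic member, 1 did not overlap between the groups. PMAIP1 over BCL2L1, singled out after its values were seen, was 7.30, 8.16, 25.2, 21.8 and 5.66 in DDB1_KD replicates 1 to 5 and 1.34, 4.11, 4.52, 4.82 and 3.53 in NC replicates 1 to 5. Of all other genes tested, 0.743% had a ratio to BCL2L1 with no overlap, every one of them higher in DDB1_KD. From isoform-summed FPKM it was again the 1 ratio of 12 without overlap, at 2.83 to 11.9 in DDB1_KD against 0.524 to 2.25 in NC, beside 1.72% of other genes. PMAIP1 over MCL1, the pair known to bind, spanned 0.773 to 4.72 with DDB1 siRNA against 0.598 to 1.33 with control siRNA, with DDB1_KD replicates 2, 3 and 5 above every NC library. BID over BCL2L1 lay between 3.27 and 17.0 in DDB1_KD, and between 1.54 and 3.33 in NC. BAK1 over MCL1 was 0.0394 to 0.117 in 4 DDB1_KD libraries, 1.45 in replicate 4 and 0.118 to 0.828 in NC.

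Of 13 other family genes, 12 were matched and 6 tested, 3 of them higher after DDB1 siRNA, 3 lower and 0 passing (median 0.19 in log2). BNIP3L, a mitophagy receptor, averaged 9.99 ± 2.97 FPKM in DDB1_KD against 7.04 ± 0.921 in NC (each SD, n = 5; 0.52 in log2, SE 0.25). BCL2L14 had a log2 fold change of 1.13 (SE 0.84), or 0.36 without DDB1_KD replicate 5. BCL2L10, an anti-apoptotic member typical of oocytes, averaged 22.2 ± 21.2 and 15.1 ± 6.32 FPKM (each SD, n = 5). Its log2 fold change of 0.54 (SE 0.49) was -0.21 without DDB1_KD replicate 2, the library with the highest sum of maternal transcripts. BCL2L12, BCL2L13 and BNIP3 stood at -0.14 (SE 0.32), -0.28 (SE 0.37) and -0.30 (SE 0.57). With 1 library left out they ran from -0.26 to 0.016, from -0.57 to -0.12 and from -0.71 to -0.035. The BH3-only genes BCL2L11 (BIM), BMF and HRK, and also BCL2A1 and BCL2L15, were under the limit for testing, and BBC3 (PUMA) was listed at 0 in all libraries, which allows up to 3 counts in each.

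The steps after cytochrome c release had 6 higher and 4 lower values among 10 tested, 0 passing, with a median of 0.085 in log2. CASP6, an effector caspase, had a log2 fold change of 0.48 (SE 0.27), DIABLO, which blocks inhibitors of apoptosis, 0.31 (SE 0.20), and APAF1, the apoptosome scaffold, 0.43 (SE 0.34). CASP6 was at 0.26 without DDB1_KD replicate 3, and APAF1 at 0.17 without DDB1_KD replicate 5. CYCS, cytochrome c itself, averaged 2301 ± 211 FPKM in DDB1_KD against 2286 ± 288 in NC (each SD, n = 5). CASP9, the caspase the apoptosome activates, was under the limit for testing, with at most 33 counts.

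Membrane proteins that work with the family had 5 higher and 6 lower values among 11 tested, 0 passing (median -0.031 in log2). VDAC3, a channel of the outer membrane, averaged 153 ± 47.3 FPKM in DDB1_KD against 104 ± 19.6 in NC (each SD, n = 5; 0.57 in log2, SE 0.24, unadjusted p = 0.0336 by edgeR). VDAC2, the channel that holds BAK1, stood at a log2 fold change of 0.11 (SE 0.19). The fission factor FIS1 was at -0.59 (SE 0.31) and the fusion factor MFN2 at -0.64 (SE 0.43). VDAC2 turned to -0.019 without DDB1_KD replicate 3, and MFN2 was at -1.14 without DDB1_KD replicate 4.

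Of 15 genes whose products act on family proteins 11 were matched, with 5 higher and 6 lower values among 11 tested, 0 passing (median -0.038 in log2). HUWE1, a ubiquitin ligase for MCL1, had a log2 fold change of 0.0051 (SE 0.16). YWHAH, of the family that binds phosphorylated BAD, was at -0.33 (SE 0.30), and BAG1, a partner of BCL2, at -0.19 (SE 0.23). Without NC replicate 5 they were at -0.13 and -0.075, and HUWE1 changed sign with 1 library left out (-0.067 to 0.094). Transcription factors known to act on family genes had 1 higher and 6 lower values among 7 tested, 0 passing (median -0.096 in log2). ATF4, of the stress response, was at -0.47 (SE 0.45) and HIF1A, of the response to low oxygen, at -0.35 (SE 0.36). ATF4 was at -0.95 without DDB1_KD replicate 4 and -0.19 without NC replicate 5, and HIF1A at -0.83 without DDB1_KD replicate 5 and -0.21 without NC replicate 2. The median of each of these 5 lists of related genes changed sign when 1 library was left out. All these values are of RNA, and neither family proteins nor cell death were measured here.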

How the data were processed

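RNA of 10 pig morula libraries, 5 DDB1_KD and 5 NC by their titles, was read from the gene and isoform tables. The authors deposited FPKM values and estimated counts, per the file headers, and the submitters' processing notes name fastp, HISAT2, StringTie and edgeR, with no version or role, and the susScr11 build. The deposited estimated counts are whole numbers, equal to FPKM times isoform length times 1 constant per library, so their sampling error may not be that of read counts. An FPKM at a count of 0 was set to 0. Whether counting used strand: not given in the sources used here.

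edgeR 4.0.16 in R 4.3.3 (glmQLFit, glmQLFTest, TMM) was fitted to all genes or isoforms with a mean of at least 1 FPKM, with group alone, and adjusted by Benjamini-Hochberg at 0.05. It was tested on simulated data. BAX and BOK, below that limit, were read from a fit of all genes with a count. limma 3.58.1 on log2(FPKM + 1) and DESeq2 1.42.0 were run beside it. Python 3.11.15 computed levels and ratios. A count of 0 allows up to 3 counts, which covers counting error only. Ratios and list sums got no test. The members, lists and alternatives were chosen with earlier results of these data known. Named by rule are DDB1, all members, other family genes and up to 3 genes with the smallest p of each of the 5 lists of related genes. VDAC2, CYCS, CASP9, HUWE1 and the genes of the marker and maternal lists were named after their values were seen. Replicate numbers of the groups did not pair libraries.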

Additional observations from a re-analysis of the deposited data

Results flagged for a closer look

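In 4 of the 16 member and group combinations 1 library stood far from the other 4, with a gap above 0.71 of the group's range. Chance gives about 1 such group in 20 for normally distributed values, a rate that need not hold for FPKM. The 4 flags are not independent, since 3 of them were DDB1_KD replicate 4. It had 17.3 FPKM of BAK1, where the gap was 0.982 of the range, 533 FPKM of BAD (0.786) and 0.281 FPKM of BOK (0.828). PMAIP1 stood at 43.5 FPKM in DDB1_KD replicate 3 (0.729).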

How the results depend on the processing

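No member passed under any of 18 alternatives for BCL2L1, MCL1, BAK1, BID, BAD and PMAIP1 or 17 for BAX and BOK, and the sign held in 136 of 142 member values. It changed for BID with total-count scaling (-0.016) and when 1 library was left out (-0.14 to 0.27; negative without DDB1_KD replicate 5 or NC replicates 1, 2 or 4), and for BAD without NC replicate 5 (range -0.48 to 0.056). The count of genes passed was 0 except with DESeq2 (2). For isoforms, 1 passed, against 68 with DESeq2, 0 with no filter, 0 with the replicate block and 0 to 2 with 1 library left out; no member isoform passed with all libraries by either tool or with 1 left out. The balance difference, 0.18 on the log2 scale, was 0.79 without MCL1, 0.78 without BAD, -1.17 with effectors alone, 0.34 as a mean of log2(FPKM + 1), 0.12 without PMAIP1, and with isoform-summed FPKM 0.31, 0.79 without BAD and -1.07 with effectors alone (these 3 and the value without BAD were chosen after seeing the data); it was 0.0058 to 0.36 with 1 library left out. With the replicate block, BAK1 was at -2.10, BOK at -2.98 and BAX at -0.79, but same-numbered libraries did not deviate together (r from -0.142 to 0.354, with 1 of 5 closest to its own number). BAK1 was at -0.86 with limma on log2(FPKM + 1) and -1.45 with a pseudocount of 0.1; the cause was not tested. Adding up rows with a shared name was not run, since each member had 1 row. BAX and BOK had at most 84 and 83 counts, with standard errors above 1 on the log2 scale.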

Other observations

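DDB1_KD replicate 4 held the highest level of its group for 4 of the 8 members, BAX, BAK1, BOK and BAD, and the lowest for BCL2L1. NC replicate 4 held the lowest level of its group for 5 members.

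Across the 10 libraries the genes whose log2 CPM was most like that of PMAIP1, by Pearson's r, were PEX2 (0.944), PDHB (0.926) and CASP6 (0.923). For BCL2L1 they were SMAP1 (0.884), IL10RB (0.881) and CASC3 (0.872). These were the highest of 8475 values each, over libraries that share group and depth, and are given as a description.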
